A study of Rattus norvegicus with 3 samples.

Results

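Insulin and IGF signaling genes were examined in the neonatal rat retina after a single intraocular dose of streptozotocin (STZ), a glucosamine-nitrosourea compound that is toxic to insulin-producing beta cells. The group holds 10 of the 18425 genes in the deposited table, chosen by symbol alone: the ligands Igf1 and Igf2, the receptors Igf1r, Insr and Igf2r, the adaptors Irs1 and Irs2, and the binding proteins Igfbp2, Igfbp5 and Igfbp3. All 10 symbols were found. Retinal RNA was sequenced from wild-type Sprague-Dawley rats that received an intravitreal injection of 1 µl at postnatal day 1 (P1), and retinas were collected at P4. The 3 groups were citrate buffer at pH 4.5, the vehicle in which STZ was dissolved, saline, and 10 µg of STZ. For its intravitreal injections at P1 the study placed STZ in right eyes and citrate buffer in the left eyes of those animals. Whether the sequenced buffer and STZ retinas were such pairs is not stated. Each group is 1 library, and the number of rats or retinas behind a library is not given in the sources used here. No difference between libraries therefore has a replicate check, and no p-value was computed. The libraries were of nearly equal depth, with estimated read counts that add up to between 21977846 and 22031241.

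Insulin and the insulin-like growth factors are small secreted proteins that act through receptor tyrosine kinases. Igf1r binds both IGFs, Insr binds insulin and, in one of its splice forms, Igf2, while Igf2r lacks kinase activity and carries Igf2 to lysosomes. The activated kinases phosphorylate the docking proteins Irs1 and Irs2, which recruit PI3-kinase and thereby activate Akt and mTOR and hold Foxo transcription factors out of the nucleus. Binding proteins in the extracellular fluid hold most IGF and govern how much reaches a receptor. In the retina, IGF signaling is known for its part in the growth of neurons and blood vessels, and Igf1 is made by microglia among other cells.

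The upstream sequences of Igf1, Igf2 and Igfbp2 are shown because these 3 genes differed most between the STZ library and the controls, as described further on. Each is the 250 bases before a transcription start in the RefSeq annotation of GRCr8, written 5′ to 3′ on the strand of the gene: chr7:24172282-24172531 on the plus strand for Igf1, chr1:207253981-207254230 and chr1:207250476-207250725 on the minus strand for the 2 annotated starts of Igf2, and chr9:81864561-81864810 on the plus strand for Igfbp2. Capitals mark matches to 4 motifs, none of which overlap here, searched on both strands. The TATA box, where transcription factors first assemble at many regulated genes, was spelled TATAAA. The GC box, the site of Sp1 and related factors, was spelled GGGCGG. The E-box bound by Myc and its relatives was spelled CACGTG. The core of a Foxo site, of interest because Foxo factors act below the insulin receptor, was spelled GTAAACA.
Igf1: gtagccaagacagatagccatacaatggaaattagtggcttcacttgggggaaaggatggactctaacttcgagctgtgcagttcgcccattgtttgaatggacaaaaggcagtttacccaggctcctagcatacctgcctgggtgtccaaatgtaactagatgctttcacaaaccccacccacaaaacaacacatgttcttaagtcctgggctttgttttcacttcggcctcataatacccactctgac
Igf2 start 1: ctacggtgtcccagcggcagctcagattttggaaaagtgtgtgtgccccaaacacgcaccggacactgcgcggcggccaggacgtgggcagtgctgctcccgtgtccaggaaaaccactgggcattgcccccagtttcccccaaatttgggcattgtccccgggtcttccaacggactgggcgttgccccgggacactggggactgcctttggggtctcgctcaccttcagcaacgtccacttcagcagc
Igf2 start 2: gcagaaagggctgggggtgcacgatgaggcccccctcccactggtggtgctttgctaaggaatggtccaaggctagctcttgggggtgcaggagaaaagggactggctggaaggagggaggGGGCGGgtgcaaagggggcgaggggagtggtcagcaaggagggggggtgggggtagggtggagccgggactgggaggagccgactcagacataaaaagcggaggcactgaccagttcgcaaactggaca
Igfbp2: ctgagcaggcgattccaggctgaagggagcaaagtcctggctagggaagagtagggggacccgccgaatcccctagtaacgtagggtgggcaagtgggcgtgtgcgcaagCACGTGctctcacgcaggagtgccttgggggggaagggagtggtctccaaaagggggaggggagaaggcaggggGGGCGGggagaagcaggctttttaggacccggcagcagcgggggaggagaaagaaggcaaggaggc
The Igf1 window held no match and had a GC content of 46.8%, below the median of 51.2% over 33469 windows of the same length. The other windows were richer in G and C, with 62.4% and 63.6% for Igf2 and 64.0% for Igfbp2. The second Igf2 start had a GC box that began 129 bases before it. Igfbp2 had a GC box 66 bases and an E-box 140 bases before its start. Over all windows, 30.5% held a GC box, 5.59% an E-box, 12.9% a TATA box and 3.21% the Foxo letters. Of the 10 signaling genes, 9 had at least 1 start in the table. Among those not printed, the Foxo letters were found once, 100 bases before the start of Insr. GC boxes were also found before the starts of Igf1r, Igf2r and Irs1, and E-boxes before those of Igf1r and Igf2r. These matches are a description of letters in a window, and no binding was measured.

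Levels are given as FPKM, fragments scaled to transcript length and to library depth, which allows genes of different length to be compared. Igfbp2 was the most abundant of the 10 transcripts in every library, with an FPKM above that of 91.1% of all genes with buffer, 92.5% with saline and 86.2% with STZ. Igf1r ranked second in each library, followed by Insr and Igf2r in either order. Igfbp3 ranked last at 1.34 FPKM with buffer, 1.28 with saline and 1.11 with STZ, and Irs1 was next to last. The only gene whose place moved by more than 2 ranks between STZ and both controls was Igf1, which had rank 8 of 10 in buffer and in saline and rank 5 in STZ. Some neighbours in the order could not be separated, since their 95% counting intervals overlapped: Insr and Igf2r in buffer and in STZ, Irs2 and Igf2 in STZ, and Igfbp5, Igf2 and Irs2 in buffer and in saline.

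**Figure D1:**
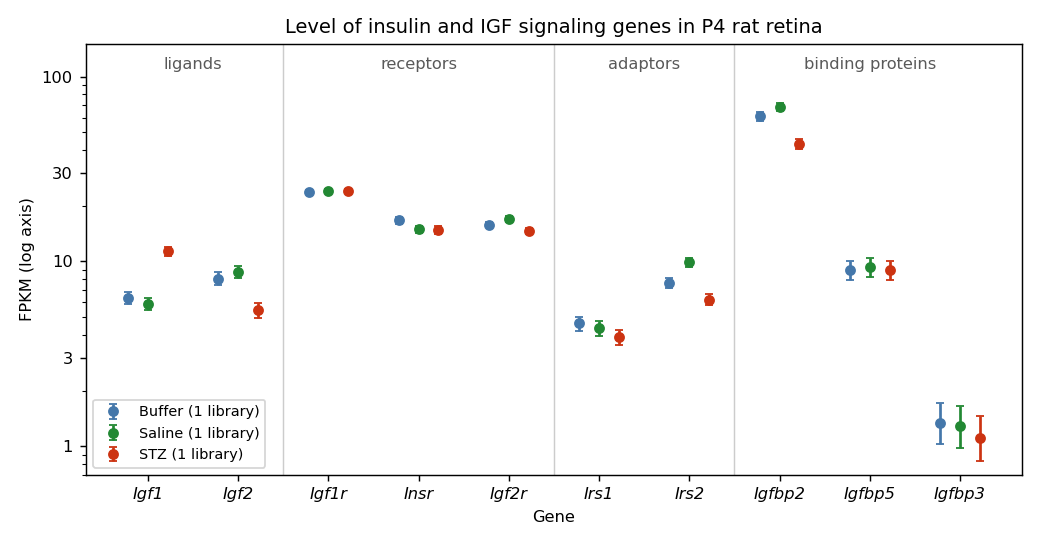
FPKM on a log axis of the 10 genes, grouped by role, in the buffer, saline and STZ libraries (1 library each). Points are the deposited values and bars are 95% counting intervals, which leave out variation between animals. Igf1 lies higher in STZ (11.4 FPKM) than in either control, Igf2 and Igfbp2 lie lower, and the points of Igf1r and Igfbp5 lie close together.

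The fold change of a gene was (FPKM + 1)/(FPKM + 1), and a gene was called higher above 1.54 and lower below 0.65, the thresholds of the study's methods. Beside it stands the count ratio, the gene's share of all counts in one library over its share in the other, with a 95% interval by the exact Clopper-Pearson method. That interval covers the counting error of reads only. PCR copies of a molecule are counted as separate reads, so the interval can be too narrow. It compares libraries, not treatments. In STZ against buffer, 1 of the 10 genes was called higher (Igf1) and 0 lower, where 2.25% of all 18425 genes were called higher and 1.04% lower. In STZ against saline, 1 was called higher (Igf1) and 1 lower (Igfbp2), against 2.04% and 1.75% of all genes. In saline against buffer, 0 of 10 were called in either direction, against 1.00% higher and 0.429% lower. The comparisons with STZ share the STZ library, so they are not independent.

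Calls by the counting interval were more frequent, among the signaling genes as among all genes. The interval lay away from 1 for 7 of 10 genes in STZ against buffer (1 above, 6 below), where 45.0% of the 14885 genes that averaged 10 counts or more did so. It lay away from 1 for 5 of 10 in STZ against saline (1 above, 4 below), with 50.4% of all genes. In saline against buffer 4 of 10 were called in this way, 3 above and 1 below, with 27.8% of all genes. The median log2 fold change of the 10 genes was -0.16 against buffer and -0.12 against saline, beside 0.03 and 0.01 over the 14885 genes. Between the controls it was 0.03, beside 0.02 over those genes.

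**Figure D2:**
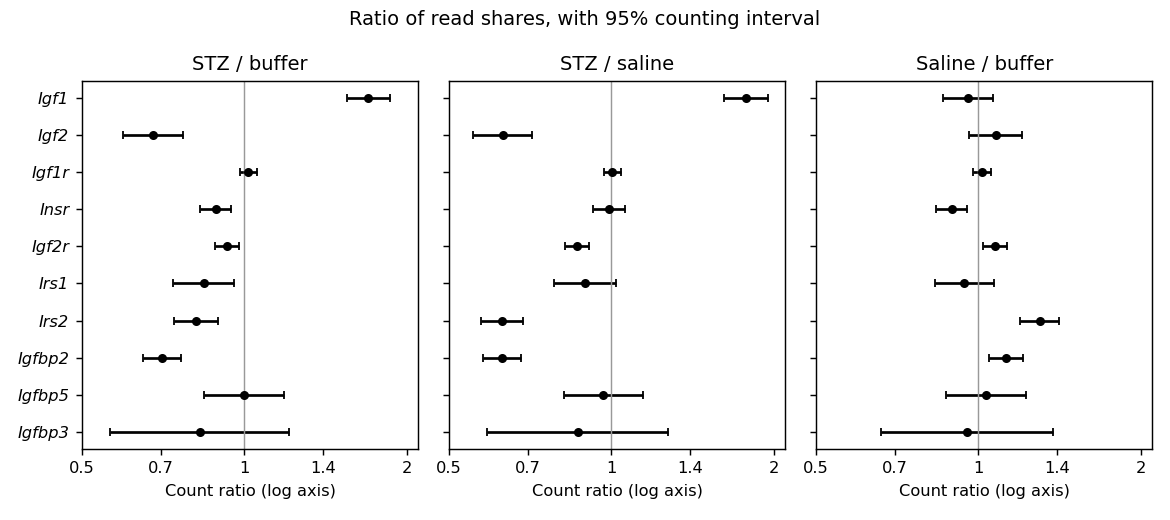
Count ratio on a log axis (x) for each of the 10 genes (y) with STZ set against buffer (left), STZ against saline (middle) and the controls against each other (right), 1 library per group. Bars are exact 95% counting intervals and the grey line marks a ratio of 1. Igf1 lies at 1.70 and 1.77 in the panels with STZ, while Igf2 and Igfbp2 lie between 0.627 and 0.705 there, and the saline to buffer ratios run from 0.892 for Insr to 1.30 for Irs2.

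The ligand transcripts differed from the controls in opposite directions. Igf1, a growth factor for neurons and glia, stood at 6.33 FPKM with buffer, 5.91 with saline and 11.4 with STZ, from 720, 689 and 1224 counts. The STZ value lay above both controls, which differed from each other by much less. The fold change of Igf1 was 1.69 against buffer and 1.79 against saline, with count ratios of 1.70 (95% interval 1.55 to 1.86) and 1.77 (1.61 to 1.95). Between saline and buffer its count ratio was 0.958 (0.861 to 1.06). Igf1 had the 266th highest fold change of 14885 genes against buffer and the 186th highest against saline, so its rise was past the threshold without being among the extremes of the table.

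Igf2, an imprinted fetal growth factor, stood at 8.04 FPKM with buffer, 8.75 with saline and 5.43 with STZ, from 609, 655 and 413 counts. STZ was again outside the range of the controls, on the low side. Relative to buffer the fold change was 0.711 and relative to saline 0.659, neither past the lower threshold of 0.65, the second only just short of it. The count ratios were 0.677 (0.596 to 0.768) and 0.629 (0.555 to 0.713), and that of saline against buffer was 1.08 (0.962 to 1.20). The order of the ligands was turned around: the FPKM of Igf1 was 0.787 times that of Igf2 in buffer (0.706 to 0.878) and 0.675 times in saline (0.606 to 0.753), but 2.09 times in STZ (1.87 to 2.35). Igf1 made up 44.1%, 40.3% and 67.7% of the summed FPKM of the ligands in buffer, saline and STZ. That sum itself was 14.4, 14.7 and 16.8 FPKM.

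The 2 kinds of ratio differ a little for Igf1 because the deposited FPKM did not scale with the counts by the same factor in each library. The counts per unit of FPKM of Igf1 were 114 with buffer, 117 with saline and 108 with STZ. From buffer to STZ it dropped by 5.36%, a larger shift than in 96.0% of the 11796 genes that averaged 100 counts or more. The other 9 genes differed by at most 0.416% between these libraries. The FPKM ratio of Igf1 in STZ against buffer was accordingly 1.80, and the count ratio 1.70. Which transcripts of Igf1 were present was not measured here.

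Insulin itself was at the limit of detection. Ins1 had 1 count with buffer, 5 with saline and 0 with STZ, and Ins2 had 1, 1 and 0. A count of 0 allows up to 3 counts, so no difference in these genes was detectable at this depth. The call of Ins1 as higher in saline against buffer and lower in STZ against saline rests on these few counts.

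By summed FPKM, the receptors differed less between libraries than the other roles. Igf1r, the kinase receptor of both IGFs, stood at 23.7 FPKM with buffer, 24.1 with saline and 24.1 with STZ, from 5770, 5852 and 5882 counts. These values are nearly level, and Igf1r had the most counts of the 10 genes and thus the narrowest intervals. Its count ratio was 1.02 against buffer (0.981 to 1.06) and 1.00 against saline (0.967 to 1.04), so counting error alone leaves room for a difference of a few percent between these libraries.

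Insr, the insulin receptor, stood at 16.7 FPKM with buffer, 14.9 with saline and 14.7 with STZ, from 1894, 1688 and 1678 counts. Here buffer was the library that stood apart, and STZ and saline lay together. The count ratio was 0.884 in STZ against buffer (0.828 to 0.945), 0.892 in saline against buffer (0.835 to 0.953) and 0.992 in STZ against saline (0.926 to 1.06). The ratio of Igf1r to Insr was 1.42 with buffer, 1.62 with saline and 1.63 with STZ on the FPKM scale.

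Igf2r, the clearance receptor of Igf2, stood at 15.8 FPKM with buffer, 17.0 with saline and 14.7 with STZ, from 2982, 3195 and 2771 counts. STZ was lowest and saline highest. The count ratio in STZ was 0.928 against buffer (0.881 to 0.977) and 0.865 against saline (0.822 to 0.911), and that of saline against buffer was 1.07 (1.02 to 1.13). The FPKM of buffer thus lay about midway between those of STZ and saline. The summed FPKM of the receptors was 56.2 with buffer, 55.9 with saline and 53.5 with STZ, and Igf1r made up 42.2%, 43.1% and 45.0% of it.

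Of the adaptors, Irs2 varied more than Irs1. Irs1 stood at 4.61 FPKM with buffer, 4.34 with saline and 3.88 with STZ, from 520, 489 and 438 counts. STZ was lowest, and no fold change passed a threshold. The count ratio was 0.841 against buffer (0.739 to 0.957) and 0.894 against saline (0.784 to 1.02).

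Irs2, the adaptor best known from liver and beta cells, stood at 7.62 FPKM with buffer, 9.89 with saline and 6.20 with STZ, from 1017, 1319 and 829 counts. The controls themselves were far apart in this gene, and STZ lay below both. The fold change in STZ was 0.835 against buffer and 0.661 against saline, in the second case just short of the lower threshold and so not called. The count ratio was 0.814 against buffer (0.742 to 0.893), 0.627 against saline (0.574 to 0.684) and 1.30 in saline against buffer (1.19 to 1.41). Which control is used therefore decides most of the size of the Irs2 difference. The FPKM ratio of Irs2 to Irs1 was 1.65 with buffer, 2.28 with saline and 1.60 with STZ.

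Among the binding proteins, Igfbp2 carried most of the transcript. Igfbp2, a binding protein abundant in the developing nervous system, stood at 60.9 FPKM with buffer, 68.6 with saline and 42.9 with STZ, from 1425, 1601 and 1006 counts. STZ was well below both controls. The fold change relative to buffer was 0.709, not past the threshold, and that relative to saline was 0.631, past it. The count ratios were 0.705 (0.649 to 0.765) and 0.627 (0.579 to 0.679), and that of saline against buffer was 1.12 (1.05 to 1.21). Of 14885 genes, Igfbp2 had the 324th lowest fold change against buffer and the 241st lowest against saline. Igf2 was 330th and 323rd lowest, and Irs2, close to Igf2 in the comparison with saline alone, was 328th lowest there.

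Igfbp5, a binding protein that also attaches to extracellular matrix, stood at 8.96 FPKM with buffer, 9.27 with saline and 8.94 with STZ, from 275, 284 and 275 counts. The 3 values were nearly level, with a count ratio in STZ of 0.998 against buffer (0.842 to 1.18) and 0.966 against saline (0.815 to 1.14). Igfbp2 and Igfbp5 are neighbours on chromosome 9, with 0 protein-coding genes between them in the RefSeq annotation, so adjacent genes showed different values in STZ. The FPKM ratio of Igfbp2 to Igfbp5 was 6.80 with buffer, 7.40 with saline and 4.80 with STZ.

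Igfbp3, the main carrier of IGFs in blood, had only 64, 61 and 53 counts, and its count ratios of 0.827 against buffer (0.563 to 1.21) and 0.867 against saline (0.588 to 1.27) allow wide differences in both directions. The summed FPKM of the binding proteins was 71.2 with buffer, 79.1 with saline and 53.0 with STZ. Divided by the summed FPKM of the ligands, it was 4.96, 5.40 and 3.15. Igfbp2 made up 85.5%, 86.7% and 81.0% of the binding protein sum. These are ratios of transcripts, and protein was not measured.

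**Figure D3:**
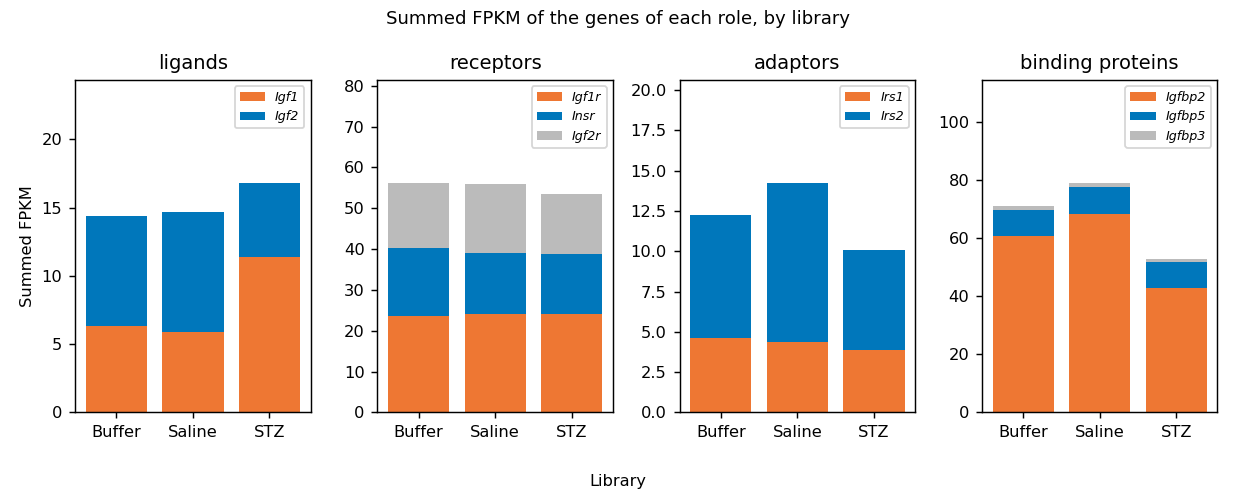
Summed FPKM (y, linear and starting at 0, with a scale of its own in each panel) of the ligands, receptors, adaptors and binding proteins in the buffer, saline and STZ libraries (x). Colours divide each bar by gene. The STZ bar of the ligands is mostly Igf1 (67.7%) where the control bars are mostly Igf2, and the STZ bar of the binding proteins is the shortest at 53.0 FPKM.

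The genes whose pattern was most like that of Igf1, by the distance between their log2 fold changes in STZ against buffer and in saline against buffer over the 3 libraries, were Pde6a, Dnajb13 and Lcp2. They were sought among 12813 genes that averaged 50 counts or more, of which 15 lay within a distance of 0.1. Pde6a, a subunit of the rod photoreceptor phosphodiesterase, had 1619, 1529 and 2861 counts in buffer, saline and STZ. Dnajb13 had 58, 51 and 132, and Lcp2, an adaptor of immune cells, had 31, 28 and 104. The pseudocount of 1 shrinks the fold changes of genes with low FPKM, so the likeness depends on it. By count ratio in STZ against buffer, Pde6a (1.76) was near Igf1 (1.70). Dnajb13 (2.27) and Lcp2 (3.35) had higher ratios than Igf1. With 3 libraries such likeness is easily found, and it is given as a description.

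The bulk libraries hold every cell type of the dissected tissue, so fewer cells of a type and less RNA per cell cannot be told apart. The retinal identity of the tissue was checked with 15 marker genes, of which 14 were listed. None of the listed ones was at 0 and none was past a threshold in any comparison, with sums of 2008, 1909 and 1948 FPKM, although Atoh7, a gene of early progenitors, had only 3, 3 and 1 counts. Markers of other cells also differed between the libraries, some higher and some lower in STZ. The summed level of 14 microglia and macrophage markers was 74.2 FPKM with buffer, 91.7 with saline and 219 with STZ, and 11 of the 14 were higher against each control, with none at 0 in any library. Igf1, which microglia make, rose less than this sum: its FPKM per 100 FPKM of the list was 8.53, 6.44 and 5.18.

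The marker sums of vascular cells and astrocytes were lower in STZ, as the values of Igf2 and Igfbp2 were. The 10 endothelial markers summed to 128, 137 and 88.9 FPKM, with 4 lower against each control and none at 0. Most of this sum was Kdr, and the other 9 markers summed to 21.8, 19.4 and 8.69, a ratio of 0.399 in STZ to buffer. The 9 pericyte markers summed to 17.0, 15.4 and 9.29, with 3 lower against buffer and 2 against saline, and none at 0. Rgs5 made up much of this sum, and without Rgs5 it was 9.19, 8.97 and 6.12. Not every pericyte marker was lower in STZ. Des had fold changes of 1.06 against buffer and 1.21 against saline, and Anpep 1.11 and 1.02. The 6 astrocyte markers summed to 118, 119 and 98.1, with 3 and 4 lower, and none at 0. Aldoc made up most of it, and without Aldoc the sum was 14.7, 16.3 and 7.59. The 9 listed mesenchyme markers summed to 8.08, 9.21 and 5.5, with 1 higher and 2 lower against buffer, 1 lower against saline, Col1a2, Lum and Twist2 at 0 in buffer and Dcn at 0 in STZ. Pdgfra is on both of the last lists, and without it the mesenchyme sum was 3.43, 5.04 and 3.58. The 10 pigment epithelium markers summed to 212, 219 and 178, with 0 past a threshold against buffer, 4 lower against saline, 4 higher in saline against buffer and Rpe65 at 0 in buffer. Against buffer, the lower sum in STZ was mostly that of Rlbp1. Without Rlbp1 the sum was 57.0, 72.8 and 56.0, near buffer in STZ but still below saline.

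Sums of markers of tissue next to the retina and of blood differed between the libraries as well. The 9 listed ciliary and iris markers summed to 97.2, 254 and 93.5 FPKM, with 4 higher in saline than in buffer and 5 lower in STZ against saline. Much of this sum was Aldh1a1, and without Aldh1a1 it was 50.5, 86.6 and 47.0. Saline was also the library in which Irs2 and Igfbp2 were highest, but so were Igf2, Igf2r and Igfbp5. Igf1r was highest there too, at 24.08 FPKM beside 24.07 in STZ. The comparison of STZ with saline was the one in which Igfbp2 was called lower. The 11 lens markers summed to 15.7, 46.1 and 263, with 9 higher in STZ against buffer and 7 against saline. The 7 that were higher against both controls were all crystallin genes. Mip was not called, with 73, 73 and 86 counts. Against saline the fold changes of Cryab, Bfsp1 and Lim2 were 0.823, 0.875 and 1.04, so not all lens markers rose with this sum. The 5 listed blood markers summed to 53.3, 68.7 and 39.2, with 1 lower in STZ against buffer and 2 against saline. Most of this was Hbb, and without Hbb the sum was 2.43, 2.78 and 1.18. The part of these cells in the values of Igf1, Igf2, Irs2 and Igfbp2 was not tested.

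**Figure D4:**
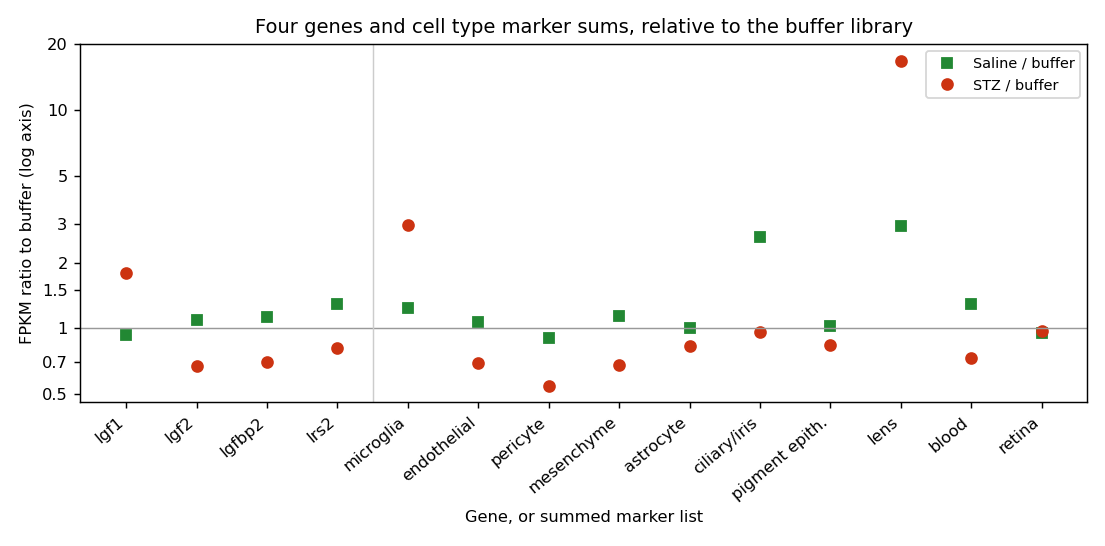
Ratio to the buffer library on a log axis (y) of the FPKM of Igf1, Igf2, Igfbp2 and Irs2 and of the summed FPKM of marker lists (x), for saline (squares) and STZ (circles), 1 library each, with no error shown. In STZ the lens sum, mostly of crystallin genes, lies highest at 16.7, followed by the microglia sum at 2.96. Igf1 is the only signaling gene plotted above 1 in STZ. In saline the lens sum (2.93) and the ciliary and iris sum (2.62) lie highest, and without Aldh1a1 the latter ratio was 1.71. Sums carried by 1 gene, such as Kdr in the endothelial list, mostly show that gene.

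The rest of the pathway was followed in 78 further genes, of which 77 were listed and 70 averaged 10 counts or more. In STZ against buffer 3 of the 77 were called higher and 2 lower, in STZ against saline 2 and 4, and in saline against buffer 1 and 0. Over all genes the shares called higher and lower were 2.25% and 1.04%, 2.04% and 1.75%, and 1.00% and 0.429%. Counts as small as these among 77 genes cannot be read against such shares. The median log2 fold change over the 70 genes was -0.04, -0.05 and 0.02 in these comparisons. The genes past a threshold against both controls were Inpp5d and Mest, which rose, and Dlk1 and Ddit4, which fell.

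Of the 27 genes of PI3-kinase, Akt and mTOR, Inpp5d was the 1 gene called higher against each control, with 0 lower. Inpp5d encodes a lipid phosphatase of blood and immune cells that acts on the lipid product of PI3-kinase. It had 66 counts with buffer, 82 with saline and 260 with STZ, with fold changes of 2.14 and 1.95. The median log2 fold change of these 27 genes was -0.07 against buffer and -0.03 against saline. Akt1, a kinase at the center of the pathway, stood at 123, 124 and 113 FPKM from 5053, 5196 and 4742 counts.

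Among 18 Foxo factors and negative regulators, 1 was called higher and 1 lower against buffer, and 0 higher and 2 lower against saline, with a median log2 fold change of -0.11 and -0.17. Counts this small in a list of 18 cannot be read against the shares over all genes (2.25% higher and 1.04% lower against buffer, 2.04% and 1.75% against saline). Ddit4, an inhibitor of mTOR complex 1 that responds to stress, had 5072 counts with buffer, 4767 with saline and 2975 with STZ. STZ was far below the controls, with fold changes of 0.588 and 0.624. Sesn2, another stress-responsive inhibitor of this complex, had 451, 512 and 785 counts, with fold changes of 1.66 against buffer and 1.48 against saline. Ddit4 and Sesn2 thus differed in opposite directions, although Sesn2 passed the threshold against buffer only. The other Sesn genes of the list were lower in STZ, without passing a threshold. The fold changes were 0.819 and 0.779 for Sesn1 and 0.790 and 0.760 for Sesn3. Foxo4 had 1291, 1381 and 844 counts, with fold changes of 0.671 and 0.629. Foxo1, the Foxo factor most studied in insulin action, had 167, 189 and 155 counts, with fold changes of 0.944 and 0.855. Sesn1, Sesn2, Sesn3 and Foxo4 were named after their values were seen.

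The 12 further binding, cleavage and carrier genes had 0 called in either direction in every comparison. Igfbp4 stood at 27.0 FPKM with buffer, 32.7 with saline and 26.3 with STZ. Igfbp7, a related secreted protein of blood vessels, stood at 23.2, 29.6 and 29.3, so that buffer and not STZ was apart. Igfbp6 had 0, 1 and 1 counts and was not measurable. Among these genes too, then, Igfbp2 had the highest level and the lower value in STZ was not shared by all abundant binding proteins. The 11 further ligand and receptor-linked genes had 0 called in STZ against buffer and only Ins1 called in the other comparisons. Grb10, an imprinted adaptor that restrains Insr and Igf1r, had 5505, 4946 and 4956 counts, with fold changes of 0.900 against buffer and 0.999 against saline. As with Insr, the STZ and saline values of Grb10 lay together below buffer.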

How the data were processed

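Total RNA of dissected retinas was converted to libraries with a TruSeq kit and sequenced by the authors, who mapped the reads with TopHat2, allowed up to 2 mismatches, discarded reads with several locations and computed expression with an R script of their own. The submitters' processing notes name FastQC and the rat build rn6. The authors deposited FPKM, TPM and an estimated count for each gene and library. The deposited FPKM gave the levels and fold changes. The deposited TPM were used as an alternative only. The deposited estimated counts were rounded to whole numbers for ratios and intervals, since 12.9% to 13.2% of them were fractional. Of the 10 genes, only Irs1 had fractional counts.

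The 10 genes and all lists were chosen with earlier results of these data known. Groups came from the labels, with 1 library each, so no model was fitted and no library could be left out. Fold changes used a pseudocount of 1 added to FPKM, which understates the change of genes with low values, and thresholds of 1.54 and 0.65. Intervals were exact Clopper-Pearson intervals for ratios and exact Poisson intervals for levels, at the 95% level. The depth of 21977846 to 22031241 counts per library made the interval of a gene with few counts, such as Igfbp3, far wider than that of Igf1r.

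All 10 genes were named. Of the other pathway lists, genes past a threshold against both controls were named, with Ins1, Ins2, Igfbp4, Igfbp6, Igfbp7, Grb10, Akt1 and Foxo1 whatever their values. The others named from these lists were chosen after their values were seen. Values of some single genes are not reported here. All 10 symbols matched the RefSeq table of GRCr8, which gave gene neighbours and promoter sequences. Its coordinates were not used with the rn6 values. Strand use in counting is not given in the sources used here, so reads of antisense transcripts may be included. The calculations were tested on simulated data. Other settings tried were thresholds of 2 and 0.5, a smaller pseudocount (0.1), genes averaging 10 counts or more, CPM or TPM in place of FPKM, TMM factors of edgeR 4.0.16, size factors of DESeq2 1.42.0, calls by the counting interval and the mean of both controls. Python 3.11.15, numpy 2.4.6, pandas 2.3.3, scipy 1.17.1, matplotlib 3.10.9 and R 4.3.3 were used.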

Additional observations from a re-analysis of the deposited data

How the results depend on the processing

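The fold changes of the 10 genes gave 160 values under the alternatives, of which 0 reversed a call and 5, all of genes not called, changed sign. The fold change of Igf1 ran from 1.65 to 1.78 against buffer and from 1.75 to 1.91 against saline, so its call held under each alternative scale, unit and pseudocount. It did not hold under thresholds of 2 and 0.5, where 0 of the 10 genes were called higher against buffer or saline and 0 lower against saline. The number called lower in STZ against saline was 3 in place of 1 with a pseudocount of 0.1, with CPM and with TPM, since Igf2 and Irs2 lay just short of the threshold. Calls by the counting interval gave 6 lower against buffer and 4 against saline, and 3 higher and 1 lower in saline against buffer. Against the mean of both controls the fold change of Irs2 was 0.738, in place of 0.835. For the further pathway genes, alternatives were added after the data were seen. A pseudocount of 0.1 gave 5 higher and 4 lower against buffer, 4 higher against saline and 3 higher in saline against buffer. Thresholds of 2 and 0.5 gave 1 lower against buffer, 1 higher and 2 lower against saline, and 0 higher in saline against buffer, as did a minimum mean of 10 counts in the last case. The TMM factors ran from 0.985 to 1.01. No paired analysis was possible because each group is 1 library, even if buffer and STZ retinas came from the same rats. Variation between animals is unknown, so differences of the size seen between the controls, such as that of Irs2, cannot be weighed against it. Depth limited Igfbp3, Igfbp6, Ins1 and Ins2.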

Other observations

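Igf2 belongs to a set of imprinted growth genes, and its mRNA is bound by a family of RNA-binding proteins, so 10 such genes were followed, of which 9 were listed. In STZ against buffer, as against saline, 1 was called higher and 1 lower, with a median log2 fold change of 0.02 and -0.05. Over all genes 2.25% were called higher and 1.04% lower against buffer, and 2.04% and 1.75% against saline, and single calls among 9 genes cannot be read against these shares. Mest, a paternally expressed gene of growing mesenchymal tissue, had 709 counts with buffer, 763 with saline and 1560 with STZ, with a fold change of 2.16 against buffer and a count ratio of 2.20 (95% interval 2.01 to 2.40). Dlk1, a paternally expressed transmembrane protein related to the Delta ligands of Notch, had 97, 79 and 22 counts, with fold changes of 0.408 and 0.472. Igf2, Mest and Dlk1 are all expressed from the paternal allele, and they did not share a direction in STZ.

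The other members did not pass a threshold, and those given here were named after their values were seen. Plagl1, an imprinted zinc finger factor, had 4372, 4670 and 3680 counts in buffer, saline and STZ. Peg3 had 7152, 7483 and 7245, and Cdkn1c, a maternally expressed inhibitor of the cell cycle, had 657, 738 and 775. Of the IGF2 mRNA-binding proteins, Igf2bp1 had 2743, 2691 and 2280 counts, lowest in STZ, while Igf2bp2 had 2370, 2168 and 2630 and Igf2bp3 had 1661, 1513 and 1803, both highest in STZ.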
